A study of Mus musculus with 57 samples.

Results

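The Hox genes examined here comprise 38 genes of the 4 mouse clusters, taken as a list of family members and not by any measured value: 10 of HoxA, 10 of HoxB, 9 of HoxC and 9 of HoxD, of 26089 genes with a transcription start site (TSS) in the curated RefSeq set. Trimethylation of histone H3 at lysine 4 (H3K4me3), acetylation at lysine 27 (H3K27ac) and trimethylation at lysine 27 (H3K27me3) were mapped by sequencing of immunoprecipitated chromatin from brain cortex and gastrocnemius muscle of PSAPP mice, with 9 cortex and 10 gastrocnemius libraries for each of the 3 marks. PSAPP mice carry mutant amyloid precursor protein and presenilin transgenes and are a model of Alzheimer's disease. All mice were of this strain, aged 13 months, singly housed on a modified AIN-93 diet with a fixed daily ration, and both tissues were snap frozen whole. No mouse without the transgenes and no input library was analysed here, males and females were mixed in each group because the labels do not give the sex of each sample, and the sources used here do not name the promoters driving the transgenes. The comparison made is therefore cortex against gastrocnemius of the same strain, and differences due to the transgenes cannot be read from it.

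Hox genes encode homeodomain transcription factors that give cells their position along the head-to-tail axis and along the limb. Within a cluster, the order of the genes follows the order in which they are used, from the anterior genes of paralog groups 1 to 4 through the central groups 5 to 8 to the posterior groups 9 to 13. The forebrain develops anterior to the territory of these genes, whereas the hindlimb, which holds the gastrocnemius, forms under the control of posterior HoxA, HoxC and HoxD genes. Polycomb complexes hold silent Hox clusters under broad domains of H3K27me3, while trithorax complexes place H3K4me3 at their promoters, and H3K27ac marks active promoters and enhancers and cannot lie on the same lysine as H3K27me3. Of the members, 11 are anterior, 11 central and 16 posterior.

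The clusters also hold microRNAs of the miR-10 and miR-196 families, which lie among the Hox genes and are known to repress Hox transcripts. Their mature sequences are shown because they place the microRNAs in the same chromatin as the genes that they target, and their seeds (bases 2 to 8, in capitals) show the families. Sequences are from RefSeq on mm10, 5' to 3'. The mature miR-10a-5p lies between Hoxb5 and Hoxb4 at chr11:96317186-96317208 (+) and miR-10b-5p in HoxD at chr2:74726074-74726096 (+). The mature miR-196a-5p is encoded at chr11:96265187-96265208 (+) in HoxB and at chr15:102973365-102973386 (+) in HoxC, and miR-196b-5p at chr6:52230129-52230150 (-) between Hoxa9 and Hoxa10.
miR-10a-5p: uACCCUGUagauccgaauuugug
miR-10b-5p: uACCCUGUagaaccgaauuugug
miR-196a-5p: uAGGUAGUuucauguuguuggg
miR-196b-5p: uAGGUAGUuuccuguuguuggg
Each pair shared its seed, and the mature sequences differed at 1 of 23 bases between miR-10a-5p and miR-10b-5p and at 1 of 22 bases between miR-196a-5p and miR-196b-5p.

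Promoters are shown for 4 members that took different courses in the data described next: Hoxd1, with H3K4me3 in every library of both tissues; Hoxd9, with H3K4me3 in every library and far more of it in muscle; Hoxa9, with H3K4me3 in muscle only; and Hoxb1, with H3K27me3 in every library and hardly any H3K4me3. Each is the 250 bases before the TSS on mm10, with every CG dinucleotide in capitals: Hoxd1 at chr2:74762730-74762979 (+), Hoxd9 at chr2:74697513-74697762 (+), Hoxa9 at chr6:52227371-52227620 (-) and Hoxb1 at chr11:96365508-96365757 (+).
Hoxd1: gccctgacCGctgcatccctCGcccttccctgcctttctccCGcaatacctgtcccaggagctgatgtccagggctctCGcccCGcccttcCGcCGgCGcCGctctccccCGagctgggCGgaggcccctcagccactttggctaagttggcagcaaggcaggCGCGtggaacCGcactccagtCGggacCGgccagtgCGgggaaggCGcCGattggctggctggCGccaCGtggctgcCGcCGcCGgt
Hoxd9: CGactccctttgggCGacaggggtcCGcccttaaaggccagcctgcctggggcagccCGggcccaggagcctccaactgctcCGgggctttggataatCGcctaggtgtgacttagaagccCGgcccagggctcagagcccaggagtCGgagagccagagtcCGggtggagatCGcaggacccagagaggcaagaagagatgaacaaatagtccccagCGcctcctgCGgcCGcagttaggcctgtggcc
Hoxa9: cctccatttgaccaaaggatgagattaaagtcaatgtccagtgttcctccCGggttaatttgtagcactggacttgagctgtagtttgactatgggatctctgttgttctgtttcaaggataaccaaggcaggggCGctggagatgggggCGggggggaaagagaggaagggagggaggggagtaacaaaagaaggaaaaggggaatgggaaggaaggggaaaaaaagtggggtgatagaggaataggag
Hoxb1: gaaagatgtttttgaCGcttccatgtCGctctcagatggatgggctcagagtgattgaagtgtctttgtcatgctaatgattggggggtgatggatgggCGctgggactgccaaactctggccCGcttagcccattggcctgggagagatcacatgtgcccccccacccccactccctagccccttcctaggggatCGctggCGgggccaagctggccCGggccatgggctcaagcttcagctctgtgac
These held 24 CG in Hoxd1, 13 in Hoxd9, 3 in Hoxa9 and 7 in Hoxb1. The RefSeq promoter table held 24 promoters of 22 of the 38 members, with 2 to 35 CG (median 12.5) against a median of 6 over all 32851 promoters of the table. At least 10 CG were found in 15 of these 24 promoters (62.5%) and in 37.8% of all promoters. The letters TGATNNAT, searched on both strands as the form of a site of Pbx and Hox proteins, were present in 4 of the 24 (16.7%) and in 7.68% of all promoters.

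Reads in called peaks ranged from 9.16 M to 18.99 M per library for H3K4me3, from 3.94 M to 27.3 M for H3K27ac and from 2.995 M to 18.25 M for H3K27me3 (M, 1000000 reads), with the H3K27me3 maximum in gastrocnemius replicate 5. Values below are reads of called peaks within 1 kb of the TSS, in RPM (reads per 1000000 reads in the autosomal peaks of the library), and a library without a peak there has 0 RPM. Because the peak caller joined neighbouring genes into 1 peak, several members could carry the same value in a library: a single H3K27me3 peak held 8 to 10 HoxA members in cortex libraries. The tissues matched their labels, since the summed H3K4me3 of skeletal muscle markers was 3.71-9.57 RPM in cortex and 144-206 RPM in gastrocnemius, and that of cortical neuron markers was 209-239 and 13.7-27.6 RPM. Markers of satellite cells, the muscle stem cells, had no H3K4me3 in cortex and 12.6-19.9 RPM in gastrocnemius, and fibroblast markers had 12.8-29.0 and 34.7-52.0 RPM. Endothelial markers had 36.2-47.6 and 57.2-95.1 RPM. The ranges of the tissues overlapped for Schwann cell markers (7.48-15.0 and 2.74-26.7 RPM) and for myeloid and blood markers (12.8-29.9 and 0-17.4 RPM). Both tissues were whole, so fewer cells with a mark and less of the mark per cell cannot be told apart, and the part of non-muscle cells in the Hox values was not tested.

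In cortex, the Hox clusters were covered almost entirely by H3K27me3 and all 38 members had an H3K27me3 peak in 9 of 9 libraries. The mark covered 97.7-99.5% of HoxA (chr6:52162417-52260880), 94.0-99.0% of HoxB (chr11:96194316-96368253), 100% of HoxC (chr15:102921131-103036852) in every library and 96.7-99.2% of HoxD (chr2:74668225-74765142). When gaps of up to 5 kb were joined and domains of at least 10 kb kept, 1 domain held all members of the cluster in 9 of 9 libraries for HoxA, HoxC and HoxD and in 8 of 9 for HoxB. With gaps of up to 2 kb joined, this held in 9 of 9 for HoxA and HoxC, in 8 of 9 for HoxD, where the domain of cortex replicate 6 ended before Hoxd1, and in 3 of 9 for HoxB. The level was high for a promoter with this mark. All 38 members had a cortex median above the upper quartile (9.13 RPM) of the 5969 tested genes with a median above 0, and the members' medians ran from 10.9 to 21.0 RPM. The highest values belonged to Hoxa3, Hoxa5, Hoxa6, Hoxa7, Hoxa9, Hoxa10 and Hoxa11, which lay in a single peak and had a lowest, median and highest value of 17.4, 21.0 and 23.9 RPM. The lowest median was that of Hoxa13, a gene of distal limb and genital development, with 6.55, 10.9 and 21.7 RPM. Genes of the anterior, central and posterior groups had the mark in every cortex library alike.

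**Figure D1:**
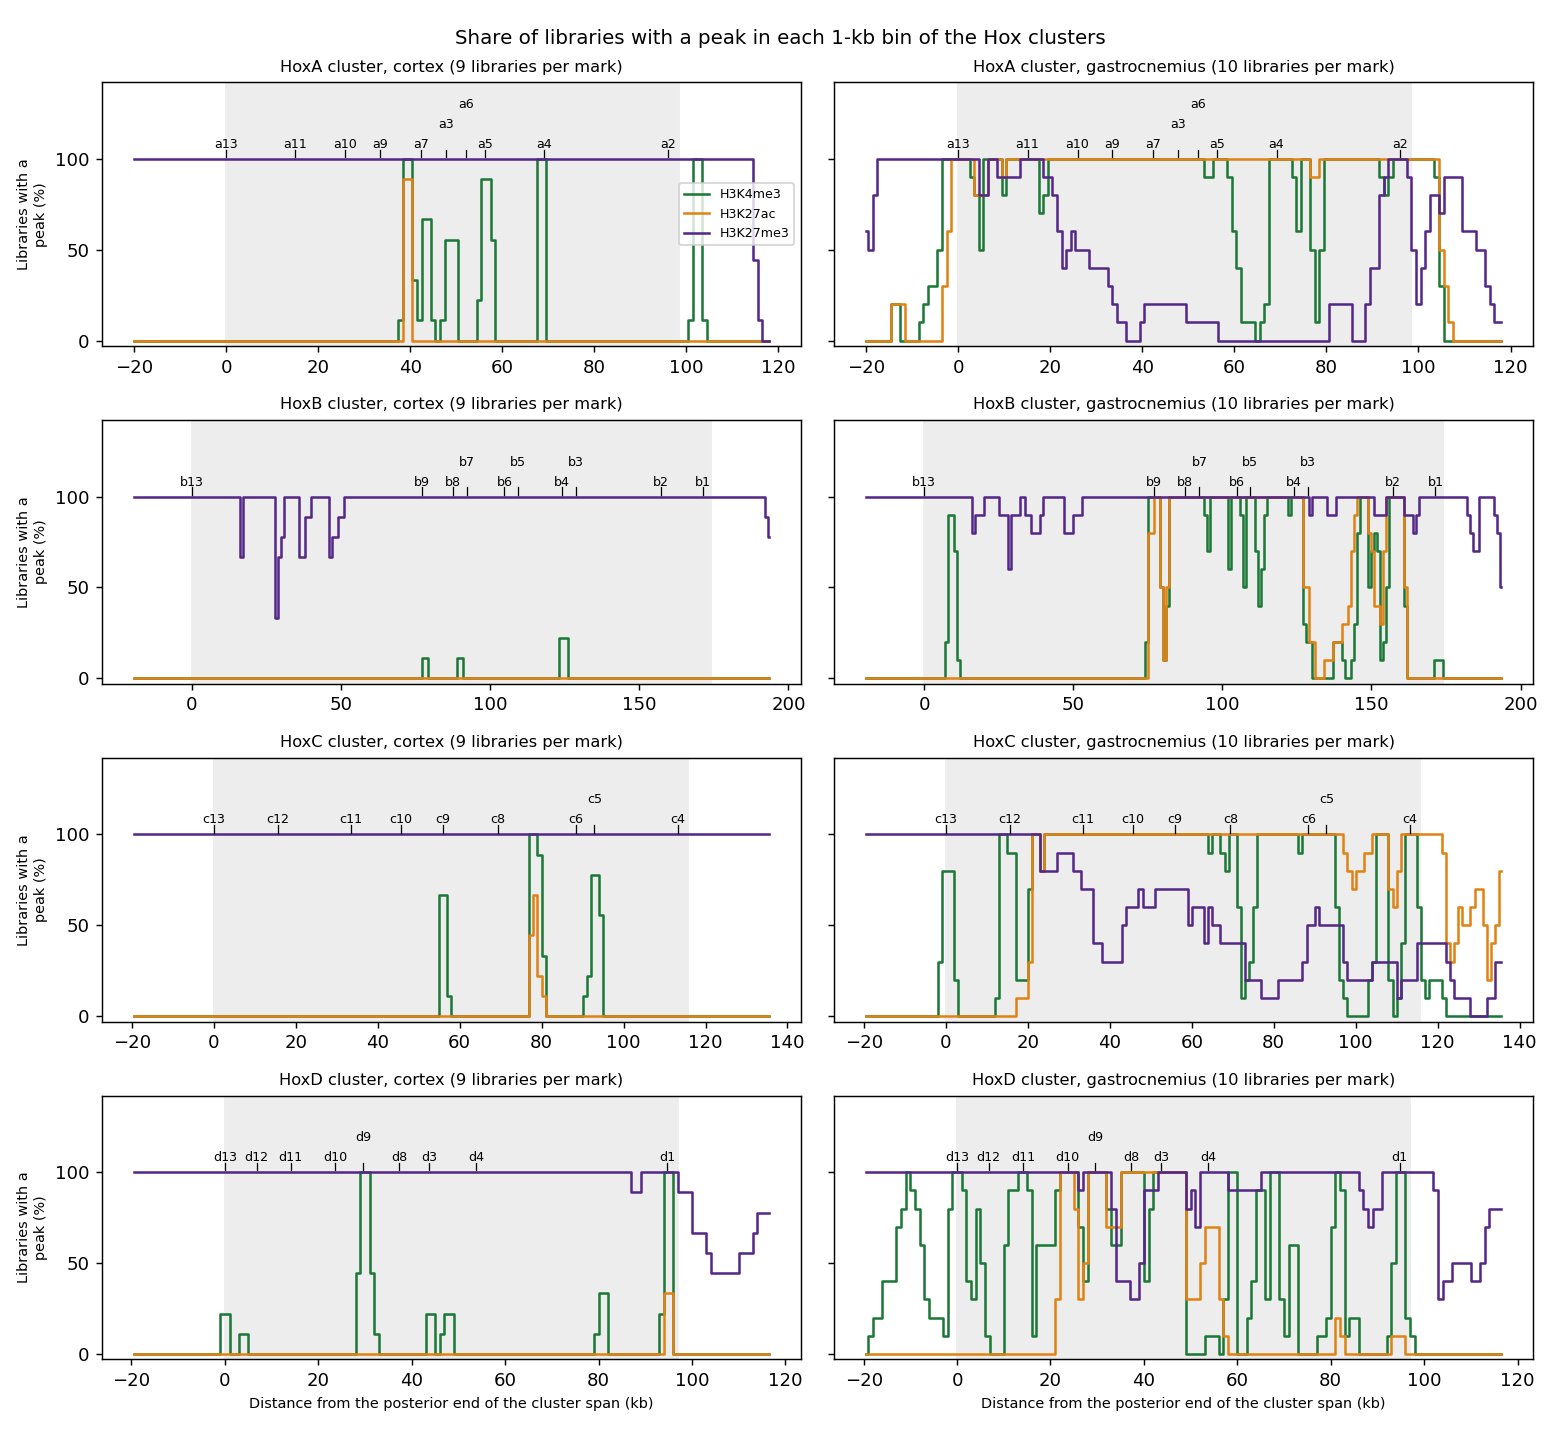
Share of libraries (%, vertical axis) with a peak of H3K4me3, H3K27ac or H3K27me3 in each 1 kb bin along HoxA, HoxB, HoxC and HoxD, drawn from the posterior end (horizontal axis, distance in kb) for cortex (9 libraries per mark) and gastrocnemius (10 per mark). H3K27me3 fills all 4 clusters in cortex, while in gastrocnemius it was called in few libraries over the middle of HoxA and in some of the libraries over much of HoxC, where H3K27ac was called. The grey area is the span of the cluster and the ticks are the TSSs of its members.

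H3K27ac was nearly absent from the clusters in cortex, and H3K4me3 was present at a minority of genes. No member other than Hoxd1 had an H3K27ac peak at its TSS in any cortex library, and Hoxd1 had one in 3 of 9. H3K4me3 was called in every cortex library at Hoxa4, Hoxd1 and Hoxd9, in 8 of 9 at Hoxa5, 7 at Hoxc5, 6 at Hoxa7 and Hoxc9, 5 at Hoxa3, 2 at Hoxb4, Hoxd3 and Hoxd13 and 1 at Hoxb9, and in none at the other 26 members. The highest level was that of Hoxd1, a gene of the anterior end of HoxD, with 9.19, 12.6 and 15.9 RPM (lowest, median and highest). Hoxd9 had 2.80, 4.04 and 5.37 RPM and Hoxa4 had 1.70, 2.76 and 3.73 RPM. All of these lay below the median of 37.8 RPM of the 15683 tested genes with H3K4me3 in cortex. Every member with H3K4me3 in a cortex also had H3K27me3 there in the same mouse, a pair of marks known as bivalent.

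The 2 sites in the cortex clusters with H3K4me3 in 9 of 9 libraries and H3K27ac in most lay away from the TSSs above, and their sequences are shown because they are the starts of alternative transcripts. These sites were chosen after their values were seen. The HoxA site at chr6:52220417-52222216 had H3K4me3 at 10.4, 12.3 and 13.8 RPM and H3K27ac in 8 of 9 libraries (median 3.24 RPM). It was 2.74 kb from the TSS of Hoxa7 and held the start of an alternative GENCODE transcript of Hoxa7 at chr6 position 52221854. The HoxC site at chr15:102998931-103001130 had H3K4me3 at 6.86, 8.61 and 10.7 RPM and H3K27ac in 6 of 9 libraries (median 2.34 RPM), and held the start of an alternative transcript of Hoxc6 at chr15 position 103000529, within an intron of longer transcripts of Hoxc6 and Hoxc5. The 250 bases before each start on mm10, at chr6:52221855-52222104 (-) and chr15:103000279-103000528 (+), are printed with CG in capitals.
HoxA site: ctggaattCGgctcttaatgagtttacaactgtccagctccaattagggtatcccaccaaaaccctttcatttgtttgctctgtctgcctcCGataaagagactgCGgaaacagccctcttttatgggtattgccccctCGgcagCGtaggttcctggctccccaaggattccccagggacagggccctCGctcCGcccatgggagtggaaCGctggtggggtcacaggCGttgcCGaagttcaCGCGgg
HoxC site: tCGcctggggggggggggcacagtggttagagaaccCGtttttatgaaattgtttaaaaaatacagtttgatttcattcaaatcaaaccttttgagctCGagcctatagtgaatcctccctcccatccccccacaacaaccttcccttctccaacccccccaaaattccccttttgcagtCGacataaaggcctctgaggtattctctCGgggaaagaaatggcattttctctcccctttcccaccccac
The HoxA stretch held 12 CG and the HoxC stretch 5. Both sites had H3K27me3 in 9 of 9 cortex libraries, and in gastrocnemius both had H3K4me3 and H3K27ac in 10 of 10 libraries and H3K27me3 in 1 of 10. In all, 10 stretches of H3K4me3 were called in most cortex libraries, 5 in HoxA, 3 in HoxC, 2 in HoxD and 0 in HoxB.

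**Figure D2:**
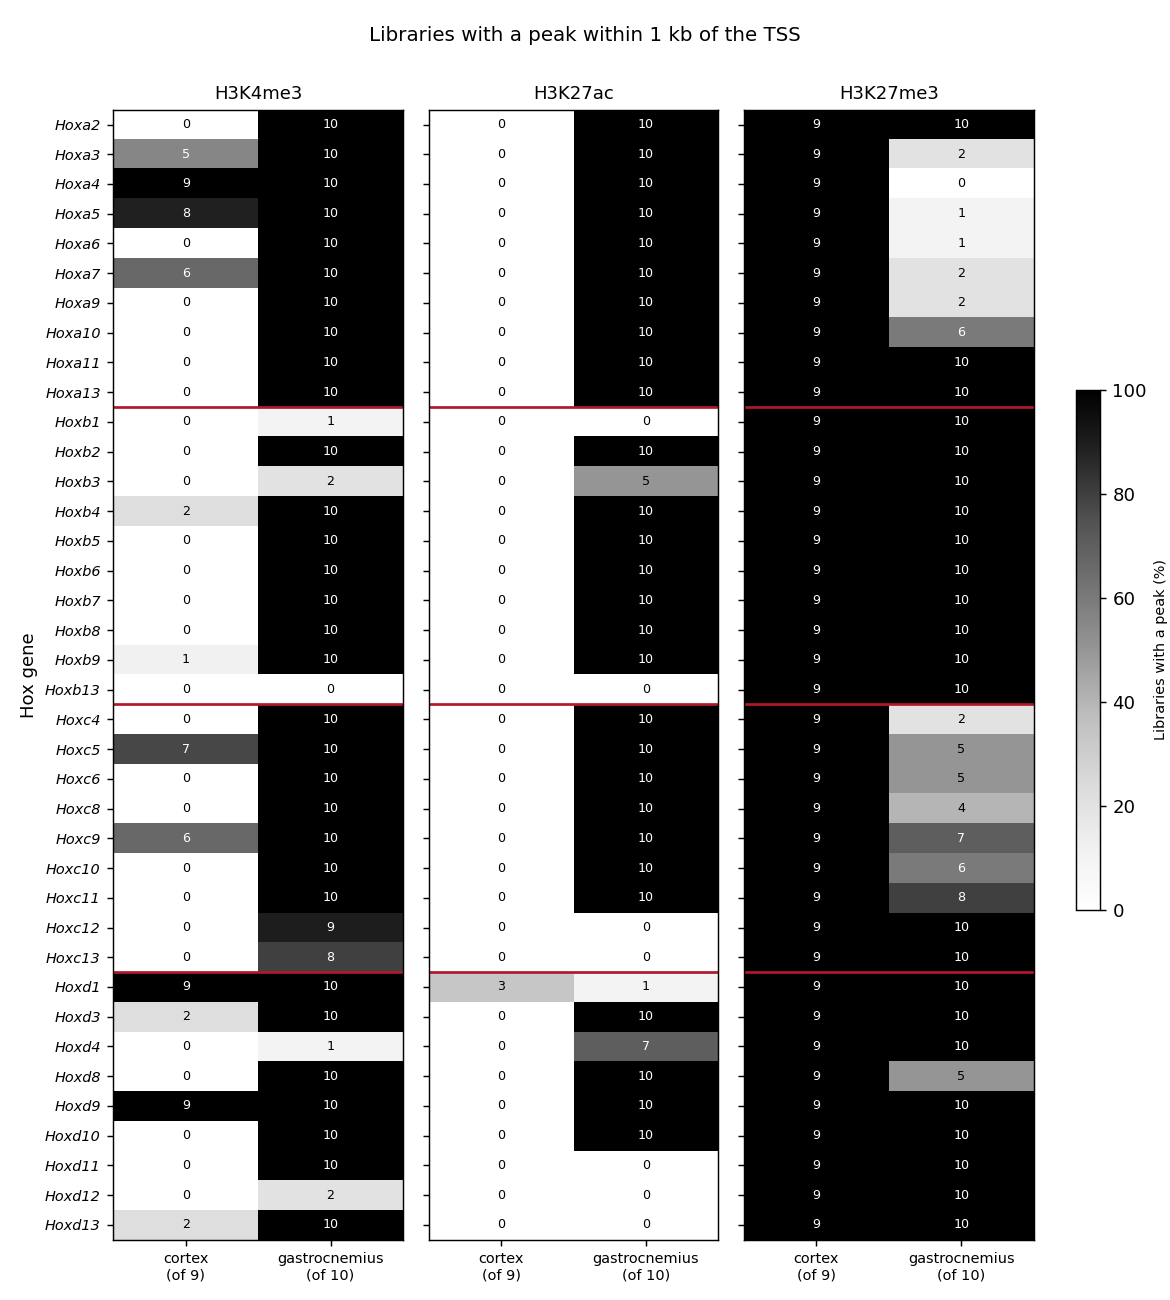
Number of libraries (figures in the cells) and share of libraries (%, grey scale) with a peak within 1 kb of the TSS of each of the 38 Hox genes, for 3 marks in cortex (of 9) and gastrocnemius (of 10). Red lines part HoxA, HoxB, HoxC and HoxD. H3K27me3 is in all cortex libraries, and its losses in gastrocnemius are in HoxA, HoxC and Hoxd8.

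In gastrocnemius, most Hox genes carried the active marks. H3K4me3 peaks were called in 10 of 10 libraries at 31 of the 38 members and H3K27ac peaks at 28. Of all 26089 genes, 13953 had H3K4me3 and 13375 had H3K27ac in every library of both tissues, and gastrocnemius alone was not counted. Calls were compared between tissues by Fisher's exact test at a false discovery rate (FDR) under 0.1, for genes with a peak in at least 3 libraries of a tissue. More gastrocnemius than cortex libraries had H3K4me3 at 25 of the 38 members, against a background of 3.43% of the 16808 genes tested, and no member went the other way (background 5.21%). For H3K27ac, 29 of 38 were called higher in gastrocnemius, against a background of 4.34% of 18398 genes, and none in cortex (9.62%). A cortex call was not possible at members without a peak in any cortex library, 26 for H3K4me3 and 37 for H3K27ac. The members not called higher in gastrocnemius for H3K4me3 were the 8 with this mark in 5 or more cortex libraries and Hoxb1, Hoxb3, Hoxb13, Hoxd4 and Hoxd12, which had it in 0 to 2 gastrocnemius libraries. No call of either mark was lost when any 1 library was left out.

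The levels were not even along the clusters. Hoxa9 and Hoxa10, posterior genes used in the hindlimb, had 35.0, 39.5 and 42.7 RPM of H3K4me3 in gastrocnemius (lowest, median and highest) and 0 in every cortex library (Fisher's exact test, adjusted p = 0.000222). Hoxa7 lay in the same peak in gastrocnemius and shared the values there, but it had H3K4me3 in 6 of 9 cortex libraries. In HoxC, Hoxc9 and Hoxc10, further genes of the posterior groups, had 22.9, 28.6 and 33.7 RPM. Among the HoxB members with a peak in every library, gastrocnemius medians ran from 12.2 RPM at Hoxb9 to 16.6 RPM at Hoxb6. Hoxc4 (15.6 RPM) lay within this range, and Hoxc5 (11.2 RPM), Hoxc6 (10.6 RPM) and Hoxc8 (7.01 RPM) lay below it. At the posterior ends, Hoxc12 had H3K4me3 in 9 libraries (median 5.26 RPM), Hoxc13 in 8 (3.80 RPM) and Hoxb13 in none. None of the 33 members with a median above 0 exceeded the upper quartile of tested genes with the mark in muscle (40.2 RPM), and the median over these members was 16.5 RPM against 29.6 RPM over those genes.

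Reads at the TSS were compared by edgeR's quasi-likelihood test, which called 33 of 38 members higher in gastrocnemius for H3K4me3 and 30 of 38 for H3K27ac, against backgrounds of 27.5% and 24.7%. It called 0 members higher in cortex for either mark, where 32.3% and 31.6% of genes were. This 0 was largely fixed in advance, because members without a cortex peak, 26 for H3K4me3 and 37 for H3K27ac, could not be called higher there. Libraries did not overlap at 30 members for H3K4me3 and at 28 for H3K27ac, with every gastrocnemius library above every cortex library, against 6.56% and 4.40% of tested genes. A log2 difference has meaning only at members with a peak in both tissues. Hoxd9 rose from the cortex levels above to 16.99, 34.3 and 43.2 RPM of H3K4me3 in gastrocnemius, a log2 difference of 3.32 ± 0.17 (SE). Hoxa4 rose to 13.3, 18.2 and 20.1 RPM, a log2 difference of 2.95 ± 0.17. Neither gene's libraries overlapped between the tissues. Hoxd1 stood apart from these, because its gastrocnemius values of 9.56, 11.8 and 16.6 RPM overlapped with those of cortex. Its log2 difference was 0.32 ± 0.14 (edgeR adjusted p = 0.0707) with TMM factors and 0.01 (adjusted p = 0.926) with library size alone, so its call depended on the scaling. The call was also lost with the mouse as a replicate block (0.34, edgeR adjusted p = 0.138). Over all tested genes the median log2 difference was -0.04 for H3K4me3 and for H3K27ac, and -0.33 and -0.31 with library size alone.

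H3K27ac lay at most of the genes with H3K4me3 in gastrocnemius. Among the members with H3K4me3 in at least 8 of 10 libraries, the exceptions were Hoxd1, Hoxc12, Hoxc13, Hoxd11 and Hoxd13. Hoxa3, Hoxa5, Hoxa6, Hoxa7, Hoxa9 and Hoxa10 shared 1 peak with 9.72, 10.9 and 16.2 RPM in gastrocnemius, and Hoxc9, Hoxc10 and Hoxc11 shared 1 with 9.98, 13.1 and 15.5 RPM. No cortex library had a peak at any of these 9 genes. Of the 30 members with a gastrocnemius median above 0, 14 exceeded the upper quartile of tested genes (9.32 RPM). By contrast, Hoxc12, Hoxc13, Hoxd11, Hoxd12, Hoxd13, Hoxb1 and Hoxb13 had no H3K27ac in any library of either tissue, although H3K4me3 was called at Hoxd11 and Hoxd13 in 10 of 10 gastrocnemius libraries. Hoxd1 had H3K4me3 in 10 and H3K27ac in 1. At Hoxa13, the posterior end of HoxA, both marks were in 10 of 10, and Hoxb13 had neither. Hoxd4 had H3K27ac in 7 libraries and H3K4me3 in 1, and Hoxb3 in 5 and 2. All 11 central genes had H3K27ac in every gastrocnemius library, compared with 7 of 11 anterior and 10 of 16 posterior genes.

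**Figure D3:**
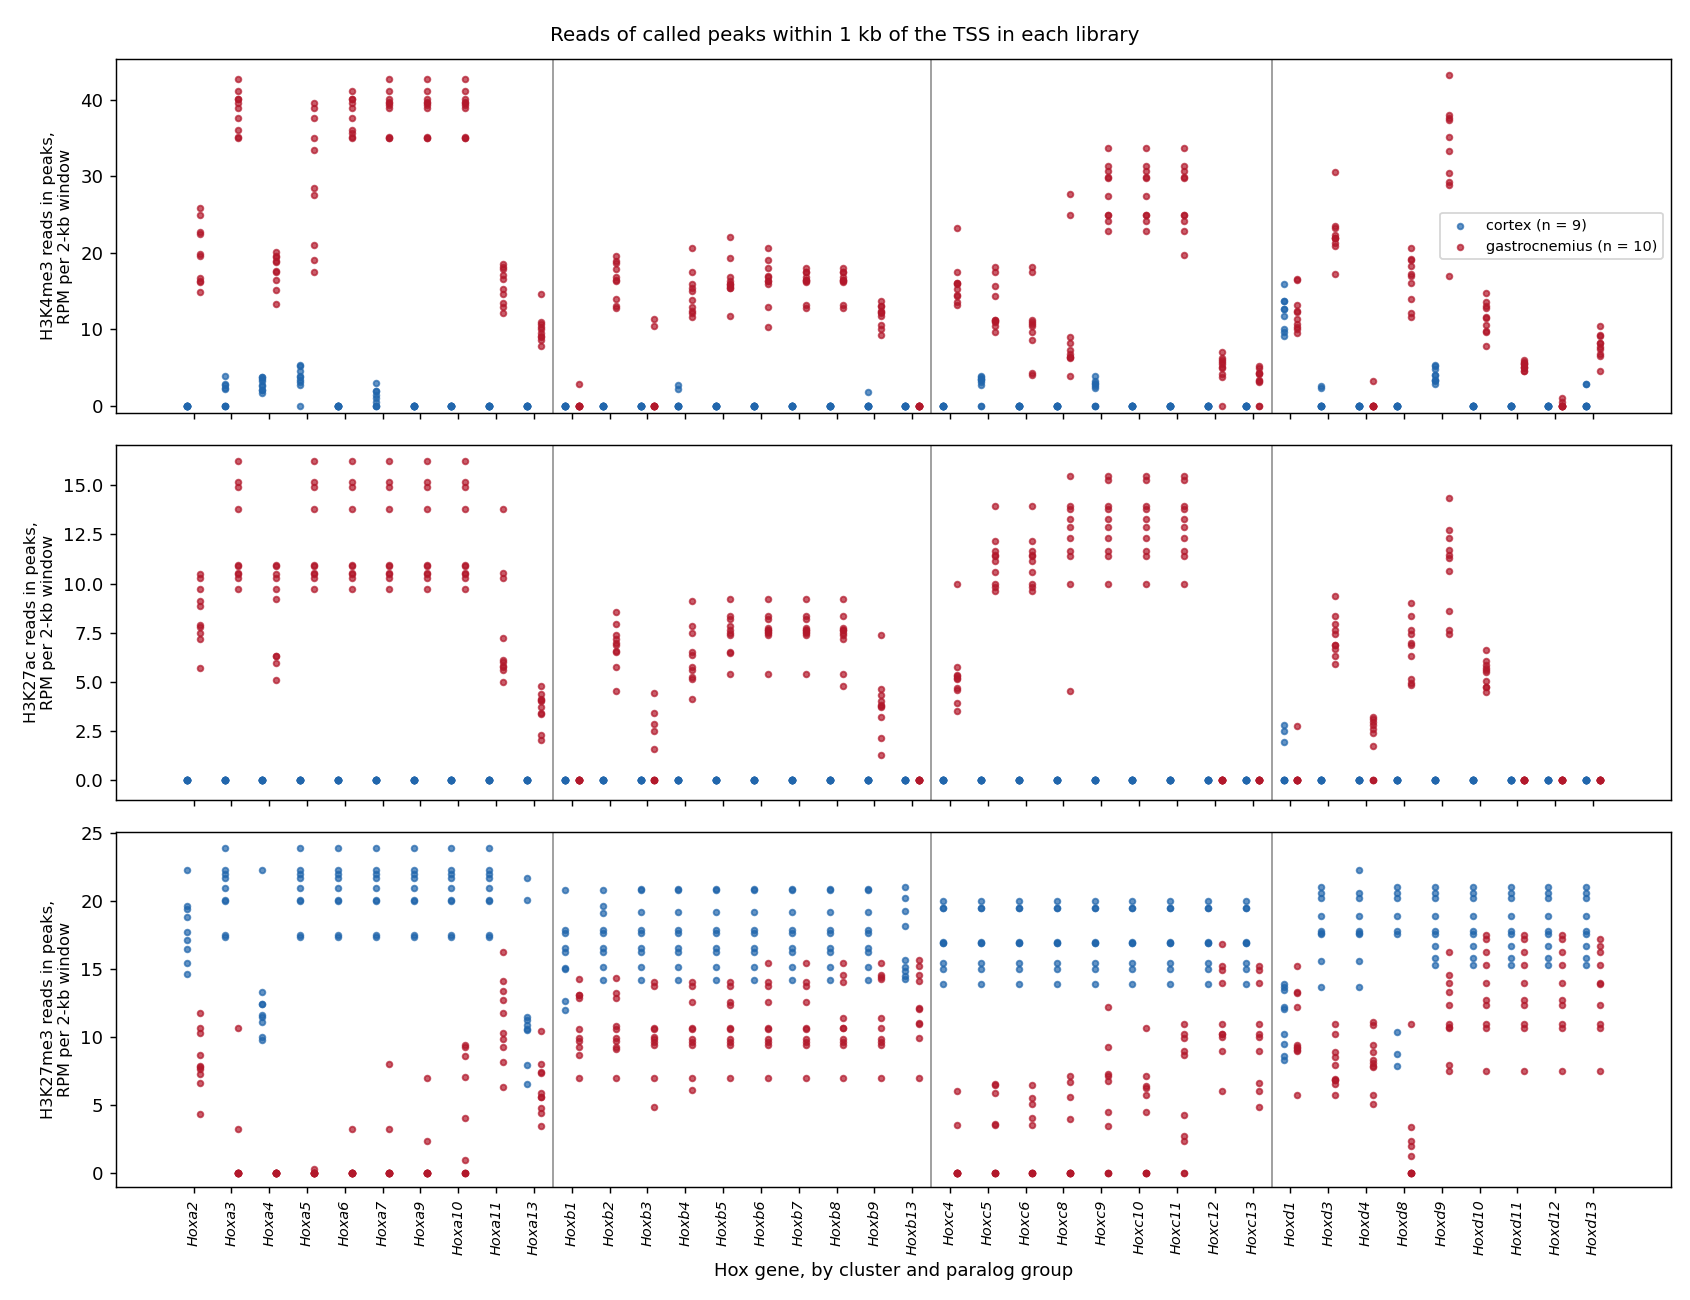
Reads of called peaks within 1 kb of the TSS (RPM per 2 kb window, vertical axes) for H3K4me3, H3K27ac and H3K27me3 at each Hox gene, with 1 point per library for cortex (blue, n = 9) and gastrocnemius (red, n = 10). Gastrocnemius points lie above cortex for the active marks at most genes but not at Hoxd1, and mostly below cortex for H3K27me3, with overlap at Hoxa13, Hoxc12, Hoxc13 and part of HoxB and HoxD.

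H3K27me3 was kept at most Hox genes of gastrocnemius and was missing from a part of HoxA and, in many libraries, of HoxC. All 38 members had the mark in every cortex library, so Fisher's exact test could only call members with more cortex libraries. It called 11 of 38: Hoxa3, Hoxa4, Hoxa5, Hoxa6, Hoxa7, Hoxa9, Hoxc4, Hoxc5, Hoxc6, Hoxc8 and Hoxd8. The background was 15.5% of the 9396 genes tested. This count fell when any 1 library was left out, to 7 members without gastrocnemius replicate 2, 4, 6, 7, 8 or 9 and to 8 without any other library. The 4 calls that could be lost were those of Hoxc5, Hoxc6, Hoxc8 and Hoxd8. For reads, edgeR called 37 of 38 members lower in gastrocnemius, against a background of 22.2%, with Hoxd1 the exception. The median log2 difference over the 38 members was -0.92, and -0.04 over all genes tested (-0.22 with DESeq2's size factors). Every gastrocnemius library lay below every cortex library at 21 members, against 4.44% of genes, and above it at 0 members (4.53% of genes).

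In HoxA, the loss covered the middle of the cluster. Hoxa4, a gene of the neck region of the axis, had 9.75, 11.6 and 22.3 RPM in cortex and no peak in any gastrocnemius library (Fisher's exact test, adjusted p = 0.000186). H3K27me3 was called in 1 of 10 gastrocnemius libraries at Hoxa5 and Hoxa6 and in 2 at Hoxa3, Hoxa7 and Hoxa9. At Hoxa10 it was called in 6 of 10, with 0, 2.51 and 9.40 RPM. On either side the mark stayed in every library. Hoxa2, at the anterior end and known from hindbrain and neural crest, fell from 14.7, 17.7 and 22.3 RPM to 4.37, 7.81 and 11.8 RPM, a log2 difference of -1.09 ± 0.05 (edgeR adjusted p = 2.85e-11). Hoxa11, a gene of the middle limb segment, had 6.33, 11.03 and 16.3 RPM in gastrocnemius and a log2 difference of -0.87, and Hoxa13 had 3.47, 5.73 and 10.4 RPM and -0.96. Thus Hoxa2, Hoxa11 and Hoxa13 retained the mark at a lower level, while the genes between Hoxa2 and Hoxa10 had it in at most 2 libraries. The TSS of Hoxa3 in RefSeq Select lies between those of Hoxa7 and Hoxa6, upstream of its place in the paralog order, so its value belongs to the central stretch.

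The borders of the domains were measured from the posterior end of the cluster. The posterior H3K27me3 domain of HoxA reached 8.08, 26.8 and 36.1 kb (lowest, median and highest of 10 gastrocnemius libraries), with the TSSs of Hoxa11 at 15.1 kb, Hoxa10 at 25.9 kb and Hoxa9 at 33.5 kb. The median border therefore lay beside Hoxa10. In 7 libraries the next domain began 89.1-92.5 kb from the posterior end, ahead of Hoxa2 at 96.1 kb, and in gastrocnemius replicate 5 it began at 41.3 kb. With gaps of up to 2 kb joined, the median border of the posterior domain was 23.6 kb and the next domain of at least 10 kb began there in 1 library in place of 7, gastrocnemius replicate 9 (91.9 kb). Replicate 5 had a further domain over Hoxa2 from 89.3 kb, so a domain of this length held Hoxa2 in 2 libraries, although the peak at Hoxa2 was called in all 10. Of the 98 bins of 1 kb in HoxA, all had H3K27me3 in most cortex libraries and 86 had no other mark, while in gastrocnemius 30 had H3K27me3 and 68 had H3K27ac without it. All 98 bins had H3K27ac in most gastrocnemius libraries.

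In HoxC, the border differed more between libraries. The posterior domain reached 22.9, 35.97 and 157 kb, and the 3 libraries in which it reached furthest were gastrocnemius replicates 5 (157 kb), 10 (123 kb) and 9 (66.3 kb). With gaps of up to 2 kb joined the median was 35.3 kb, and the domain reached 76.7 kb in replicate 5, 123 kb in replicate 10 and 35.3 kb in replicate 9, below the 36.5 kb of replicate 2. Hoxc12 at 15.7 kb lay inside the domain in every library, and Hoxc11 at 33.4 kb lay beside the median border. Hoxc12 fell from 13.9, 16.9 and 20.003 RPM in cortex to 6.01, 10.6 and 16.8 RPM (log2 difference -0.55), and Hoxc13, a gene known for hair and nail, to 4.86, 10.1 and 15.2 RPM (-0.73). Both kept the mark in 10 of 10 libraries. Further on, H3K27me3 was called in 8 of 10 libraries at Hoxc11, 6 at Hoxc10, 7 at Hoxc9, 4 at Hoxc8, 5 at Hoxc6 and Hoxc5 and 2 at Hoxc4. The 9 HoxC genes had 1 shared value in cortex, because a single peak held all of them.

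HoxB and HoxD kept H3K27me3 in gastrocnemius at nearly every gene. All 10 HoxB genes had it in 10 of 10 libraries, with log2 differences from -0.44 at Hoxb13, a gene of the tail end and prostate, to -0.72 at Hoxb3. In HoxD, the mark was in every library at 8 of 9 genes. Hoxd10, Hoxd11 and Hoxd12, genes of the limb, shared a log2 difference of -0.42 ± 0.03, with 15.3, 17.8 and 21.0 RPM in cortex and 7.51, 13.4 and 17.5 RPM in gastrocnemius, so their libraries overlapped. Hoxd3 (-1.07) and Hoxd4 (-1.06) fell further, and the TSS of Hoxd3 in RefSeq Select lies between those of Hoxd8 and Hoxd4. Hoxd8 was the gap in the domain, with 7.87, 17.8 and 21.0 RPM in cortex, 0, 0.619 and 10.97 RPM in gastrocnemius and a peak in 5 of 10 libraries (Fisher's exact test, adjusted p = 0.0979). Hoxd1 had 8.34, 12.1 and 13.9 RPM in cortex and 5.72, 9.35 and 15.2 RPM in gastrocnemius, a log2 difference of -0.09 ± 0.09 (edgeR adjusted p = 0.472), and -0.27 (adjusted p = 0.0754) with DESeq2's size factors. Among the members tested, Hoxd1 was the only one that edgeR did not call for H3K27me3.

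**Figure D4:**
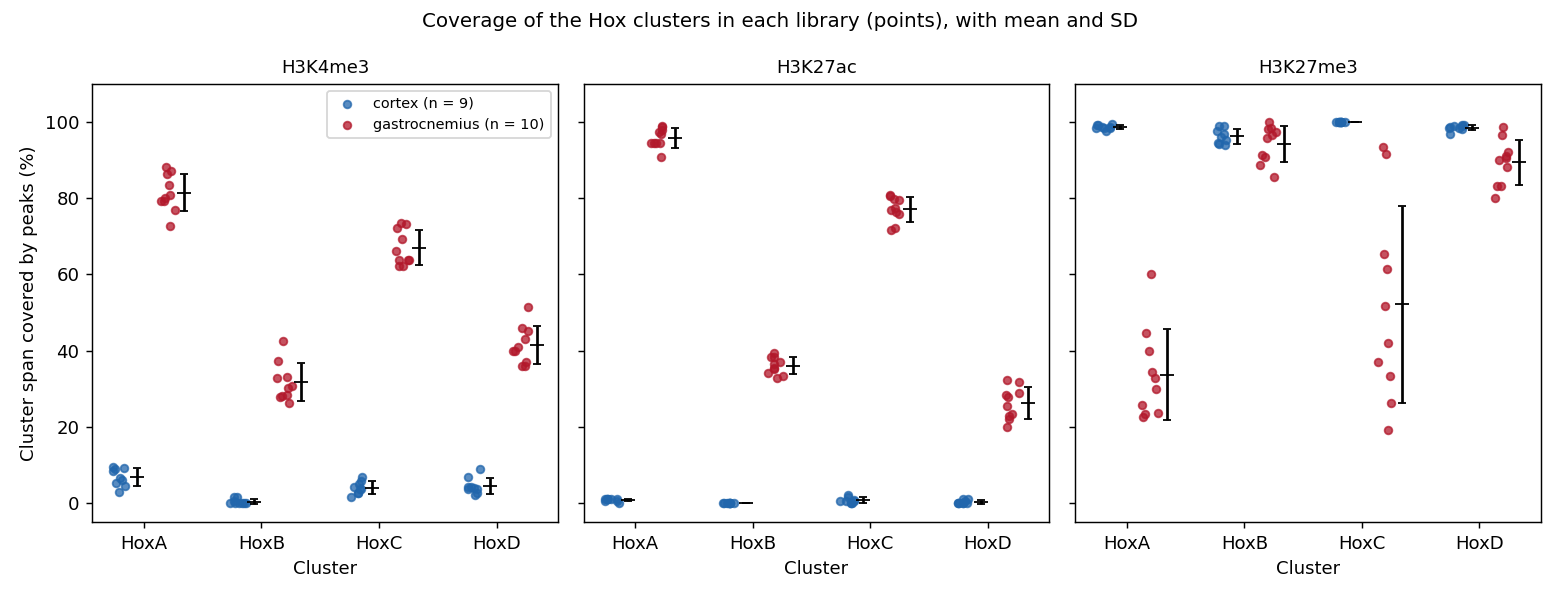
Share of each cluster span covered by peaks (%, vertical axis) in each library, with 1 point per library for cortex (blue, n = 9) and gastrocnemius (red, n = 10), and the mean with SD as bars beside the points. H3K27me3 in gastrocnemius runs from 22.5 to 60.1% of HoxA and from 19.1 to 93.4% of HoxC, and stays at 79.98% or more of HoxB and HoxD.

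Whole clusters were compared by exact two-sided permutation of the tissue labels over 92378 relabellings, with Benjamini-Hochberg adjustment over 12 tests. H3K27me3 covered 98.7% ± 0.535 of HoxA in cortex and 33.7% ± 11.9 in gastrocnemius (SD, n = 9 and 10, exact adjusted p = 1.44e-05). In HoxC the cover was 52.1% ± 25.8 in gastrocnemius, 47.9 percentage points less than in cortex (exact adjusted p = 0.000156). Replicates 5 and 10 covered 91.5% and 93.4% of HoxC and the other 8 libraries 19.1-65.4%. HoxD lost 9.16 percentage points (exact adjusted p = 0.000236), with overlap between the tissues. For HoxB the cover was 96.2% ± 1.94 and 94.2% ± 4.81, a difference that did not pass the test (exact p = 0.26). Replicate 5 had the most H3K27me3 reads and the widest total cover of the genome, 484 Mb, and the part of this in its HoxC value was not tested.

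The H3K27me3 reads in called peaks, in RPM per kb of the whole cluster, were lower in gastrocnemius in all 4 clusters, and no library overlapped with those of the other tissue (exact adjusted p = 1.18e-05 for HoxA, HoxB and HoxC and 2.17e-05 for HoxD). Stretches without a peak count as 0 in this sum, so it moves with the cover, whose mean was 98.7% in cortex and 33.7% in gastrocnemius for HoxA and 100% and 52.1% for HoxC. Per kb of covered length, the lowest, median and highest values in HoxA were 8.12, 9.92 and 11.3 RPM in cortex and 2.37, 4.66 and 6.60 RPM in gastrocnemius. The cortex mean of this density was 2.04 times the gastrocnemius mean in HoxA, 1.71 times in HoxC, 1.52 times in HoxD and 1.501 times in HoxB, beside 6.39, 3.75, 1.70 and 1.54 times for the sums. The densities of the 2 tissues overlapped in HoxC and HoxD and not in HoxA and HoxB, and they were not tested. Cover by H3K4me3 in gastrocnemius was 72.8-88.0% of HoxA, 62.1-73.3% of HoxC, 35.9-51.4% of HoxD and 26.2-42.4% of HoxB, and at most 9.55% in any cortex library. Cover by H3K27ac was 90.7-98.8% of HoxA, 71.6-80.9% of HoxC, 32.9-39.3% of HoxB and 20.02-32.2% of HoxD, and at most 2.07% in cortex. In each cluster both active marks covered more in gastrocnemius (exact adjusted p = 1.44e-05).

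Marks of opposite kind were called together at part of the Hox TSSs in muscle. Within the same mouse, H3K4me3 and H3K27me3 were both called in every gastrocnemius at 16 of 38 members, beside 6.41% of all 26089 genes: Hoxa2, Hoxa11, Hoxa13, Hoxb2, Hoxb4, Hoxb5, Hoxb6, Hoxb7, Hoxb8, Hoxb9, Hoxd1, Hoxd3, Hoxd9, Hoxd10, Hoxd11 and Hoxd13. All 3 marks were called in every gastrocnemius at 13 of them (3.76% of all genes), the exceptions being Hoxd1, Hoxd11 and Hoxd13. Hoxa4 and Hoxb13 had the pair in no mouse, Hoxa4 for want of H3K27me3 and Hoxb13 for want of H3K4me3. In cortex the pair was called in every mouse at Hoxa4, Hoxd1 and Hoxd9 (6.69% of all genes) and in none at 26 members (82.0%). Of the 174 bins of 1 kb in HoxB, all had H3K27me3 in most gastrocnemius libraries, 62 also had H3K4me3 and 57 had all 3 marks. H3K27me3 and H3K4me3 were together in 29 of 98 bins of HoxA, 42 of 116 of HoxC and 46 of 97 of HoxD, and all 3 marks in 29, 35 and 18 of them. These are peaks of whole tissue, so marks on the same allele and marks in different cells cannot be told apart.

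The microRNAs shown above and the long non-coding RNAs of the clusters lay in the same H3K27me3 domains as the Hox genes in cortex and differed from each other in gastrocnemius. All 9 of Mir10a, Mir10b, Mir196a-1, Mir196a-2, Mir196b, Hotair, Hottip, Evx1 and Evx2 had H3K27me3 in 9 of 9 cortex libraries, and Mir10a alone had H3K4me3 there, in 2. In gastrocnemius, Mir196b, between Hoxa9 and Hoxa10, had H3K4me3 and H3K27ac in 10 of 10 libraries and H3K27me3 in 4 (Fisher's exact test, adjusted p = 0.0416). Its relative Mir196a-1 in HoxB had neither active mark and kept H3K27me3 in 10 of 10, whereas Mir196a-2 in HoxC had both active marks in 10 and H3K27me3 in 7. The same mature miR-196a-5p is therefore encoded at a locus with active marks and at a locus without them. The windows lie at the annotated starts of the microRNA genes, and any promoter further upstream was not examined. The active-mark values of Mir196a-2 were those of the peaks over Hoxc10. Mir10a had all 3 marks in 10 of 10 libraries, while Mir10b had H3K4me3 in 9, H3K27ac in 2 and H3K27me3 in 10.

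Hotair, a long RNA read from HoxC, had both active marks in 10 of 10 gastrocnemius libraries and H3K27me3 in 9, and Hottip, at the posterior end of HoxA, had H3K4me3 in 10, H3K27ac in 8 and H3K27me3 in 10. Evx1 and Evx2, homeobox genes beyond the posterior ends of HoxA and HoxD, had H3K4me3 in 9 libraries, no H3K27ac and H3K27me3 in 10, with log2 differences of H3K27me3 of -0.30 and -0.41. Of the 17 neighbours listed, which include the flanking genes Skap2, Jazf1, Mtx2, Lnpk, Skap1, Cbx1, Calcoco1 and Smug1, Fisher's exact test called 8 of the 16 tested for H3K4me3 (background 3.43%) and 5 of the 13 tested for H3K27ac (4.34%) higher in gastrocnemius. The former were Evx1, Evx2, Hotair, Hottip and microRNAs and the latter Hotair, Hottip and microRNAs, with none of the 8 flanking genes among them. Some of these calls repeat peaks of Hox members. Mir196b had the values of Hoxa9 and Hoxa10 for both active marks. Mir196a-2 had those of Hoxc10 for both marks, and Hotair those of Hoxc10 for H3K27ac. Skap1 was called higher in cortex for H3K27ac (9.62%). For H3K27me3 Fisher's exact test called Skap2 (1 of 9 cortex and 7 of 10 gastrocnemius libraries) and Jazf1 (0 and 7), the flanking genes of HoxA, higher in gastrocnemius and Mir196b higher in cortex. The 2 genes called higher in gastrocnemius were of 12 neighbours tested, beside 17.7% of all genes, and edgeR did not call Skap2 (adjusted p = 0.388).

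Genes that act with Hox proteins or on Hox chromatin were given for comparison. All 9 genes of the Pbx, Meis and Pknox cofactors, all 25 Polycomb genes and all 11 trithorax and H3K27 demethylase genes had H3K4me3 and H3K27ac in every library of both tissues. Of all 26089 genes, 13953 had H3K4me3 and 13375 had H3K27ac in every library. Levels could still differ. Among the cofactors, edgeR called 4 higher in gastrocnemius and 3 in cortex for H3K4me3 (backgrounds 27.5% and 32.3%). For H3K27ac it called 1 and 3 (24.7% and 31.6%). Of the Polycomb genes it called 2 and 5 for H3K4me3 and 6 and 7 for H3K27ac. Of the trithorax and demethylase genes it called 3 and 2, and 3 and 1. Among the cofactors, Fisher's exact test called H3K27me3 higher in gastrocnemius at Meis3 (2 of 9 cortex and 10 of 10 gastrocnemius libraries) and Pbx4 (0 and 5), and higher in cortex at Meis1 (8 and 1). These are 2 and 1 of 4 tested, beside backgrounds of 17.7% and 15.5%. No trithorax or demethylase gene had H3K27me3 in any library. Of the 7 Polycomb genes tested for H3K27me3, Fisher's exact test called 1, Phc2, higher in gastrocnemius, a share near the background of 17.7%. For reads, edgeR called 4 of the 7 higher in gastrocnemius (background 25.4%) and 0 higher in cortex (22.2%). The ParaHox genes Gsx1, Gsx2, Pdx1, Cdx1 and Cdx2, homeobox relatives outside the clusters, kept H3K27me3 in every library of both tissues. Gsx2 had H3K4me3 in 9 of 9 cortex and 1 of 10 gastrocnemius libraries, the only Fisher call of this list, among 2 genes tested for this mark (background 5.21%). By edgeR all but Cdx1 had less H3K27me3 in gastrocnemius (4 of 5 tested, background 22.2%), from -0.22 at Gsx2 to -0.54 at Cdx2 on the log2 scale, beside -0.44 to -0.72 in HoxB.

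Retinoic acid switches on anterior Hox genes in the embryo, and 14 genes of its receptors, synthesis, breakdown and binding were listed. Fisher's exact test called 4 of the 14 tested for H3K27ac higher in gastrocnemius (background 4.34%), the breakdown enzymes Cyp26b1 (0 of 9 cortex and 9 of 10 gastrocnemius libraries) and Cyp26c1 (0 and 7) and the synthesis enzymes Aldh1a2 (0 and 6) and Aldh1a1. For H3K27me3 it called the receptor gene Rarg higher in gastrocnemius (0 and 6) and Cyp26c1 (9 and 1) and the receptor gene Rxrg (9 and 3) higher in cortex. These are 1 and 2 of 9 tested, near the backgrounds of 17.7% and 15.5%. For H3K4me3 it called Aldh1a1 higher in gastrocnemius and Crabp1, a retinoic acid binding protein gene, higher in cortex (9 and 3), each 1 of 12 tested beside backgrounds of 3.43% and 5.21%.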

How the data were processed

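H3K4me3, H3K27ac and H3K27me3 peaks of 57 libraries were used, grouped by mark and tissue from the labels. The authors aligned reads to mm10 (BWA and SAMtools per the submitters' processing notes), removed duplicates and called peaks in each library with epic2, without input (no version was found for it). The deposited count of each peak is a whole number of reads as the authors counted them, not normalized. The deposited score, as the authors' peak caller wrote it, served only to rank peaks. Coordinates fell on 200 bp steps, and the smallest gap between peaks was 600 bp for H3K4me3 and H3K27ac and 800 bp for H3K27me3, so nearer peaks had been joined.

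Only called peaks are in the files, so 0 means that no peak was called, not that no read was present. A count was shared evenly over its peak's length, and the share within 1 kb of 1 RefSeq Select TSS per gene was rounded for tests. Reads of a broad peak are thereby spread over all genes inside it. RPM is per 1000000 reads in autosomal peaks of that library. edgeR 4.0.16 (quasi-likelihood, TMM) in R 4.3.3 was fitted to all genes with a peak in at least 3 libraries of a tissue, over both tissues, with libraries as replicates and no block. Fisher's exact test compared numbers of libraries with a peak. Both were adjusted by Benjamini-Hochberg over all genes tested, at an FDR under 0.1 as in the study. Clusters were compared by exact permutation of cover and of log2(RPM per kb + 0.01), where the smallest possible p is 1.08e-05. The two-sided tests take libraries as separate mice. Python 3.11.15, NumPy 2.4.6, pandas 2.3.3, SciPy 1.17.1, matplotlib 3.10.9, limma 3.58.1 and DESeq2 1.42.0 were also used. The scripts were tested on simulated data.

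The members, the gene lists and the tests were chosen with earlier results of these data known. All 38 members are accounted for. Named with values are members called by Fisher's exact test (at most 4 per cluster and mark), members beside a domain border, members with an active mark in at least 3 cortex libraries and at most 4 called genes of each other list, besides those said to be chosen later. Numbers in the titles named the same mouse in both tissues in 4 of 9 shared cases, and animal names carried by the deposited files gave 9 mice with both tissues. Deviations of the same mouse's libraries from their group means correlated with r from -0.07 to 0.06 for H3K4me3 and H3K27ac and from 0.04 to 0.13 for H3K27me3. Alternatives were the window, the TSS set, filters, scaling, other tools, blocks by number and by mouse, and leaving out libraries. Taking equally many peaks per library and leaving out both gastrocnemius replicates 5 and 10 were added after seeing the data.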

Additional observations from a re-analysis of the deposited data

Results flagged for a closer look

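H3K27me3 cover of HoxD in cortex replicate 6 was 96.7%, below the other 8 cortex libraries, of which the nearest had 98.1% and the median of the 9 was 98.6%. Its gap to the nearest library was 0.583 of the range of the group, above Dixon's critical value for 9 samples. This was 1 of 90 groups examined in this way, and chance alone marks about 1 in 20.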

How the results depend on the processing

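No direction was reversed under any alternative. Restricting edgeR to genes called in every library left 3 of 3 members higher in gastrocnemius for H3K4me3 (33 without the restriction) and 22 of 23 lower for H3K27me3 (37), because fewer genes were tested, and left no member to test for H3K27ac. Leaving out 1 library at a time gave 7 to 8 members called by Fisher's exact test for H3K27me3 instead of 11, and 0 to 1 member higher in cortex for H3K27ac by edgeR, the 1 being Hoxd1 without gastrocnemius replicate 2. The cover of HoxB by H3K27me3 passed the threshold without the libraries whose names carry a run number (-4.72 percentage points, exact adjusted p = 0.0379) and with both gastrocnemius replicates 5 and 10 left out (-3.27, exact adjusted p = 0.0672), and the cause was not tested. With the mouse as a replicate block, edgeR called 32 members for H3K4me3, 29 for H3K27ac and 37 for H3K27me3, so the pairing moved no count by over 1.5 times. The H3K4me3 difference of Hoxd1 lost its call under this block (0.34, adjusted p = 0.138), with library size alone, with limma and without any of 5 libraries. The reads in H3K27me3 peaks differed between libraries, and their part in the absence of a peak was not tested.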
